A study of Capra hircus with 18 samples.

Results

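The transcripts of 2 activin subunits, *INHBA* and *INHBB*, and of 2 receptors named for activin, *ACVR1B* and *ACVRL1*, were described in the blood of goats after road transport. These 4 genes were taken by name from 2 tables whose genes were chosen by the p-value of transported against control goats, and they were 4 of the 1557 genes that the tables held together. The table for 30 min of transport held 430 genes, 2 of them (*INHBA* and *ACVR1B*) described here, and the table for 180 min held 1247 genes and all 4. *INHBB* and *ACVRL1* were therefore analysed at 180 min only. Because the members were thus selected on their own counts in that contrast, every contrast with the control group below is a description of the genes that were chosen, and limma's calls in it are given further on only beside the share of all listed genes that were called. After 180 min *INHBA*, *ACVR1B* and *ACVRL1* were higher on average than in control goats, and *INHBB* was lower.

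Blood was taken from 18 uncastrated male Spanish goats aged 8 months, each giving 1 library, and all had gone without feed overnight. The control goats (n = 7) stayed in pens, 4 goats were transported for 30 min (about 50 km) and 7 for 180 min (about 200 km). Blood was drawn from the jugular vein after transport into tubes that preserve RNA. Transport took place on 2 days, the labels do not give the day of each goat, and no day term could be fitted. Goats are named here by group and number. In whole blood, fewer cells of a type and less RNA per cell cannot be told apart, and blood cell counts were not analysed here.

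Activins are dimers of inhibin beta subunits: *INHBA* encodes the subunit of activin A and *INHBB* that of activin B, and either subunit joined to the alpha subunit encoded by *INHA* makes an inhibin. Activins bind type II receptors, which bring in a type I receptor kinase, chiefly the one encoded by *ACVR1B*, and that kinase phosphorylates SMAD2 and SMAD3, which then enter the nucleus and regulate transcription. *ACVRL1* encodes a type I receptor of the same family that, despite its name, is best known on endothelial cells as a receptor for BMP9 and BMP10, where *ENG* encodes its co-receptor. Activin A is made by several blood and immune cells, including monocytes and neutrophils, and takes part in inflammation.

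In the deposited coordinates, whose build is not given in the sources used here, *INHBA* (ENSCHIG00000025901) lay on chromosome 4 from 40862502 to 40878751 and *INHBB* (ENSCHIG00000024398) on chromosome 2 from 64024339 to 64030091. *ACVR1B* (ENSCHIG00000018417) spanned chromosome 5 from 27575072 to 27610549, and *ACVRL1* (ENSCHIG00000027035) spanned chromosome 5 from 27638840 to 27652819. All 4 genes were on the minus strand. The receptor genes were neighbours, with 28290 bases between them and 0 genes between them in the RefSeq table of the goat assembly ARS1.2.

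The depth of a library was taken as its effective library size, the number of reads by which the authors divided when they computed FPKM (fragments per kilobase of gene, scaled to library size). It ranged from 10443023 to 39473244 in control goats, from 13992574 to 22855051 after 30 min and from 11290309 to 34125715 after 180 min. Goat 10 of the 180 min group stood apart: it had the lowest depth of its group, and 26.2% of its reads fell on the 1247 genes of the 180 min table, against 7.93 to 14.3% in the other 180 min goats and 4.22 to 9.25% in control goats. Values for the members in which goat 10 weighs most are given with and without it.

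*INHBA*, the subunit of activin A, was higher than the control median in every goat transported for 180 min. Its level is first given as a normalized count, a read count divided by 1 size factor per goat. In the 180 min group the lowest value was 54.4, the median 104 and the highest 1695, and in control goats these were 11.3, 44.7 and 233. All 7 goats of the 180 min group were above the control median, but only goats 10 (1695) and 11 (334) were above every control goat, so the groups overlapped. The mean was 364 ± 595 (SD, n = 7) after 180 min and 69.2 ± 75.7 (SD, n = 7) in control goats. Goat 10 alone carried 66.6% of the group's total, and without it the group mean was 142 ± 105 (SD, n = 6). The medians differed 2.33-fold. On the scale of log2(normalized count + 1), the difference of group means was 1.86 (SE 0.82), and 1.31 without goat 10. The read counts behind these values were 68 to 953 after 180 min and 11 to 195 in control goats.

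After 30 min *INHBA* lay on the other side of the control median. Normalized counts were 12.9, 20.9, 23.2 and 27.4 in goats 24, 27, 22 and 21, and control goats had a lowest value of 9.46, a median of 42.3 and a highest of 222. All 4 transported goats were below the control median and none was outside the control range. The mean was 21.1 ± 6.10 (SD, n = 4) against 64.7 ± 73.0 (SD, n = 7), and the log2 difference was -1.001 (SE 0.58). It was -0.60 without control goat 3, the highest control goat, -0.31 with each goat centred on the listed genes and -1.54 in edgeR with effective library sizes. These values rest on 10 to 33 reads per transported goat. The control goats are the same 7 in both contrasts, and their normalized counts differ slightly between the tables because the size factors were computed separately.

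For *INHBA* the goats of both transport times were also set beside each other, with counts scaled by effective library size. Per gene length, *INHBA* had 0.438, 0.695, 0.778 and 0.921 FPKM in the 4 goats transported for 30 min, and a lowest value of 1.58, a median of 2.94 and a highest of 51.8 FPKM in the 7 goats transported for 180 min. Every 180 min goat was above every 30 min goat, which held in the same direction for 3 of the 120 genes in both tables (2.5%). The difference of log2(scaled count + 1) was 2.87, and 2.32 to 3.15 when each goat was left out in turn. No test of this difference is given, because *INHBA* was listed as low after 30 min and as high after 180 min in these same goats. Over the 120 genes, limma called 0 after adjustment and 5 (4.17%) at an unadjusted p under 0.05.

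**Figure D1:**
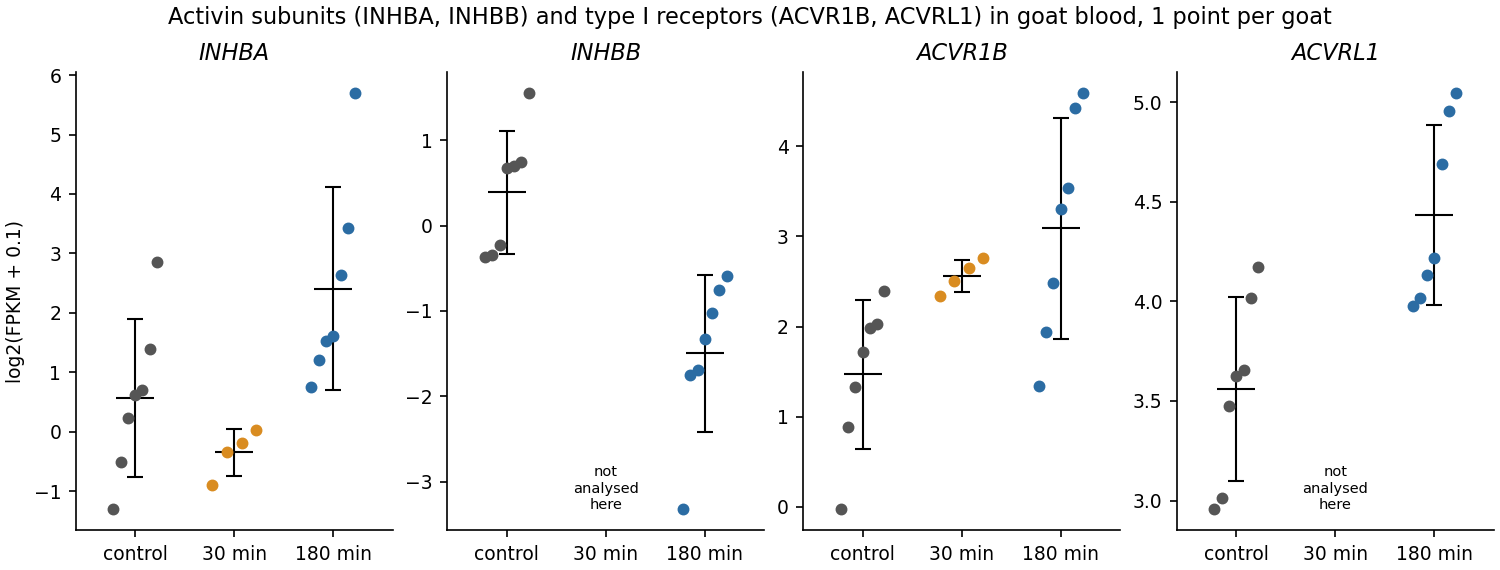
Level of the 4 genes as log2(FPKM + 0.1) (FPKM is fragments per kilobase of gene, scaled to library size), 1 point per goat in the control (n = 7), 30 min (n = 4, *INHBA* and *ACVR1B* only) and 180 min (n = 7) groups, with the mean ± SD of the plotted values in black. The highest *INHBA* point is goat 10 of the 180 min group (51.8 FPKM), the lowest *INHBB* point is the same goat (0 FPKM), and all 180 min points of *INHBB* lie below the control points.

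*INHBB*, the subunit of activin B, was lower after 180 min of transport. Its normalized count in the 180 min group had a lowest value of 0 (goat 10), a median of 18.8 and a highest of 40.9, and in control goats the values were 45.2, 94.1 and 211. All 7 transported goats were below all 7 control goats, a separation in this direction that 1.2% of the listed genes showed and from which nothing is read, since the same contrast chose the gene. The mean was 20.8 ± 13.9 (SD, n = 7) against 95.1 ± 58.3 (SD, n = 7), and the control median was 5.01 times the 180 min median. The log2 difference was -2.50 (SE 0.75), and -1.85 without goat 10. Reads were few, 0 to 48 per transported goat against 23 to 205 per control goat. In goat 10, a count of 0 allows up to 3 reads, or a normalized count of 5.34, which is still below every other goat; such limits cover counting error only. Goat 4 was the highest control goat.

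The ratio of the subunits follows from these levels. Per gene length, the ratio of *INHBA* to *INHBB* had a lowest value of 0.108, a median of 0.955 and a highest of 10.3 in the control goats, where 3 of 7 goats had more *INHBA*. In the 6 goats of the 180 min group with *INHBB* reads it was 3.94, 7.56 and 35.8, and in goat 10 no ratio could be formed. Within the 180 min group, *INHBA* exceeded *INHBB* in 7 of 7 goats, by 3.90 (SE 0.95) on the scale of log2(FPKM + 0.1), by 3.05 without goat 10, and by 2.35 with 1 added to FPKM in place of 0.1. In control goats the same difference was 0.18 (SE 0.72), within the spread of the goats. These differences carry no test, because *INHBA* was listed as high and *INHBB* as low after 180 min.

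Goats with more *INHBA* had less *INHBB* than others of their own group. Over the 14 control and 180 min goats, with group means taken out of log2(normalized count + 1), Pearson's r was -0.80 (permutation p = 0.00398, adjusted p = 0.0199 over 30 relations) and Spearman's rho was -0.64 (permutation p = 0.0181, adjusted p = 0.0678). The sign was the same in control goats (r = -0.73, exact permutation p = 0.0573, n = 7) and in 180 min goats (r = -0.85, exact permutation p = 0.0460, n = 7). Without the 2 goats farthest from the median of *INHBA*, control goat 3 and goat 10 of the 180 min group, r was -0.47, and without goat 10 alone it was -0.57 (permutation p = 0.0576), so the size of the relation rests on those goats. Both genes were listed for their values in these same goats. Taking out group means need not remove that choice, so these p-values are descriptive. Both values come from the same library and share its size factor. Within groups, *INHBB* also ran with effective library size (r = 0.64, permutation p = 0.0122, adjusted p = 0.0366; rho = 0.54, permutation p = 0.0547, adjusted p = 0.111; r = 0.48 without the 2 farthest goats), and *INHBA* ran the other way, short of the threshold (r = -0.53, permutation p = 0.0619, adjusted p = 0.109; rho = -0.43, permutation p = 0.144, adjusted p = 0.254; r = -0.27 without the 2 farthest goats). By group, the r of *INHBA* with effective library size was -0.21 in control goats and -0.84 in 180 min goats. That of *INHBB* was 0.69 in control goats and 0.72 in 180 min goats. *INHBB* and *INHBA* also ran in opposite directions with the neutrophil, platelet and endothelial marker sums (values stand with the markers). The part of depth and of these markers in the relation of the subunits was not tested.

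**Figure D2:**
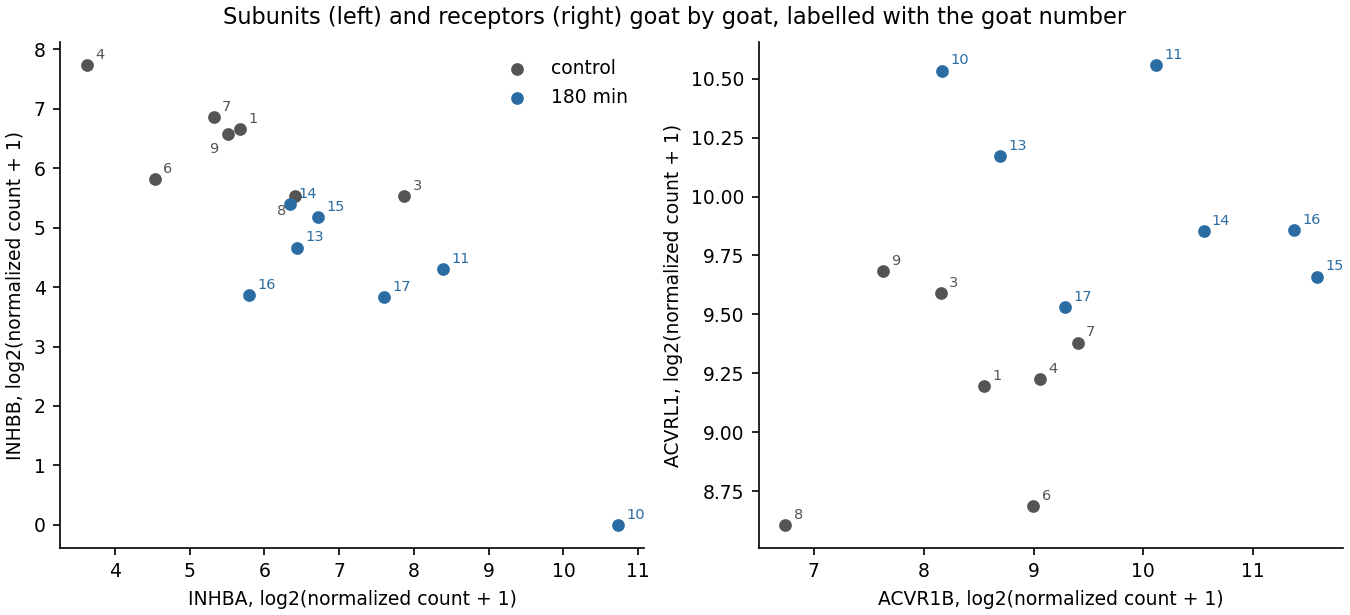
The subunits *INHBA* and *INHBB* (left) and the receptors *ACVR1B* and *ACVRL1* (right) plotted against each other as log2(normalized count + 1), 1 point per goat with its number, for control (grey) and 180 min (blue) goats. Goat 10, with 1695 normalized counts of *INHBA*, had 0 of *INHBB*, and control goat 4 had 11.3 and 211.

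*ACVR1B*, the type I receptor for activins, was higher than control at both times. After 30 min its normalized counts were 539, 598, 660 and 706 in goats 27, 22, 21 and 24, and control goats had a lowest value of 102, a median of 348 and a highest of 569. Goats 21, 22 and 24 were above every control goat, and goat 27 was within the control range. The mean was 625 ± 72.8 (SD, n = 4) against 335 ± 161 (SD, n = 7), the medians differed 1.81-fold, and the log2 difference was 1.08 (SE 0.33). This difference was 1.77 with each goat centred on the median of the listed genes and 0.82 without control goat 8.

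After 180 min the goats were spread more widely in *ACVR1B*. Its lowest value was 286 (goat 10), its median 1105 and its highest 3058 (goat 15), against 106, 375 and 675 in control goats. Goats 11, 14, 15 and 16 were above every control goat, goats 13 and 17 were within the control range, and goat 10 was below the control median. The mean was 1376 ± 1098 (SD, n = 7) against 383 ± 202 (SD, n = 7), the medians differed 2.95-fold, and the log2 difference was 1.60 (SE 0.61), or 1.90 without goat 10.

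For *ACVR1B*, goats transported for 30 min and for 180 min overlapped. With counts scaled by effective library size, 4 of the 7 goats of the 180 min group were above all 30 min goats and 2 were below them. Per gene length, *ACVR1B* had 4.97 to 6.67 FPKM after 30 min, and after 180 min a lowest value of 2.43, a median of 9.81 and a highest of 24 FPKM. The difference of 180 min from 30 min was 0.53 on the log2 scale, 0.28 without goat 15, 0.30 without goat 16 and 0.83 without goat 10. No test is given for it, because values of the same goats had chosen the gene.

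The goats in which *ACVR1B* was low tended to be those in which *INHBA* was high, but the relation did not pass adjustment. Within groups r was -0.61 (permutation p = 0.0267, adjusted p = 0.0534) and rho was -0.65 (permutation p = 0.0203, adjusted p = 0.0678), with r = -0.51 without the 2 farthest goats, -0.44 without goat 10 (permutation p = 0.140) and -0.56 without goat 16. Over all 18 goats with the 3 group means taken out, r was -0.62 (permutation p = 0.0224) and rho -0.62 (permutation p = 0.0213), a relation outside the 30 that were adjusted. *INHBB* and *ACVR1B* ran the same way as each other (r = 0.60, permutation p = 0.0243, adjusted p = 0.0521; rho = 0.54, permutation p = 0.0562, adjusted p = 0.111; r = 0.40 without the 2 farthest goats).

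*ACVRL1*, the endothelial-type receptor, had the smallest log2 difference of the 4 genes from control. After 180 min its lowest normalized count was 739 (goat 17), its median 927 and its highest 1505 (goat 11), and in control goats the values were 389, 597 and 820. All 7 transported goats were above the control median, and goats 10, 11, 13, 14 and 16 were above every control goat. The mean was 1077 ± 313 (SD, n = 7) against 605 ± 164 (SD, n = 7), the medians differed 1.55-fold, and the log2 difference was 0.83 (SE 0.22). With effective library sizes the difference was 0.88, with each goat centred on the median of the listed genes it was 0.64. Fitted to the listed genes alone, DESeq2 gave 0.40 and edgeR with TMM factors gave 0.35, where the median of all listed genes moved by -0.35 and -0.41.

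No pair of members that includes *ACVRL1* passed adjustment. The sign differed between the groups for *ACVR1B* and *ACVRL1* (r = 0.17 in control goats and -0.50 in 180 min goats). It also differed for *INHBB* and *ACVRL1* (r = 0.33 in control goats and -0.53 in 180 min goats). With effective library size, the r of *ACVRL1* was 0.63 in control goats and -0.71 in 180 min goats, and 0.013 over both groups. With the monocyte marker sum it was 0.67 in control goats and -0.32 in 180 min goats. The values of r that follow are over both groups. For *INHBA* and *ACVRL1* r was 0.46 (permutation p = 0.115, adjusted p = 0.172; rho = 0.38, permutation p = 0.194, adjusted p = 0.277; r = 0.12 without the 2 farthest goats), 0.61 without control goat 8 (permutation p = 0.0376, unadjusted) and 0.29 without goat 10. For *ACVR1B* and *ACVRL1*, neighbours on chromosome 5, r was -0.22 (permutation p = 0.472, adjusted p = 0.548; rho = -0.24, permutation p = 0.421, adjusted p = 0.525; r = -0.37 without the 2 farthest goats), -0.52 without control goat 8 and -0.03 without goat 10. For *INHBB* and *ACVRL1* r was -0.24 (permutation p = 0.475, adjusted p = 0.548; rho = 0.029, permutation p = 0.931, adjusted p = 0.931), and it was 0.20 without goat 10.

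Compared per gene length within the same goat, *ACVRL1* was the most abundant of the 4 in control goats by median, at 12.2 FPKM, followed by *ACVR1B* at 3.18, *INHBB* at 1.5 and *INHBA* at 1.43. *ACVRL1* exceeded *ACVR1B* in 7 of 7 control goats, by 2.09 (SE 0.35) on the scale of log2(FPKM + 0.1). *ACVR1B* exceeded *INHBA* in 5 of 7, by 0.90 (SE 0.72), which did not go beyond their spread. After 180 min the medians were 18.5 FPKM for *ACVRL1*, 9.81 for *ACVR1B*, 2.94 for *INHBA* and 0.298 for *INHBB*. *ACVRL1* exceeded *ACVR1B* in 5 of 7 goats, by 1.34 (SE 0.58) and by 0.97 without goat 10, and the order was turned in goats 15 and 16. *ACVR1B* exceeded *INHBA* in 4 of 7, by 0.68 (SE 1.02) and by 1.52 without goat 10. No test is given of this order, since the levels entered the choice of genes. The ratio of *ACVR1B* to *ACVRL1* ran from 0.0971 to 0.504 in control goats and from 0.0784 to 1.53 after 180 min, with medians of 0.260 and 0.342.

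When limma was fitted to every listed gene, all 4 members passed an unadjusted p under 0.05 after 180 min, as did 62.4% of the 1247 listed genes. Of the members 3 were higher, as were 36.8% of the listed genes, and 1 was lower, as were 25.6%. This balance of the listed genes depended on the scaling: 459 were higher and 319 lower here, against 292 and 500 in DESeq2, 245 and 480 in edgeR with TMM factors, and 311 and 426 with each goat centred on the listed genes. After 30 min *ACVR1B* passed (higher) and *INHBA* did not, where 46.0% of the 430 listed genes passed, 21.6% higher and 24.4% lower (93 and 105 genes, against 126 and 9 with centring). Since the tables are lists of called genes, nothing is read from these counts. The medians of the log2 difference over all listed genes were 0.68 after 180 min and -0.92 after 30 min. The *INHBA* call after 180 min was lost without control goat 4, control goat 6, or goat 10 or 11 of the 180 min group, and the *ACVRL1* call was lost in edgeR with TMM factors and in DESeq2. The *ACVR1B* call after 30 min was lost in edgeR with TMM factors and without control goat 9 or any one of goats 21, 22 and 24.

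The other genes of the pathway were taken from 8 lists of 113 genes in all, 4 of them the members. At 180 min 10 of the 113 were in the table, of which 5 were higher, 3 were lower and 2 did not pass; without goat 10 the calls of *INHBA* and *INHA* were lost, leaving 3 higher and 3 lower. Over all listed genes 36.8% were higher and 25.6% lower at 180 min, and 21.6% and 24.4% at 30 min, so nothing is read from these counts. At 30 min 5 of the 113 were in the table, of which 1 was higher, 1 was lower and 3 did not pass. The median log2 difference over the pathway genes in the table was 1.07 at 180 min and -0.99 at 30 min, beside 0.68 and -0.92 over all listed genes. Of the lists, 3 of the 5 activin family ligands, 1 of the 29 other ligands, 2 of the 7 type I receptors and 1 of the 12 co-receptors were analysed at 180 min, with 2 of the 22 SMADs and their regulators and 1 of the 12 target genes. The 5 type II receptors, through which activins first bind, were not analysed here.

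**Figure D3:**
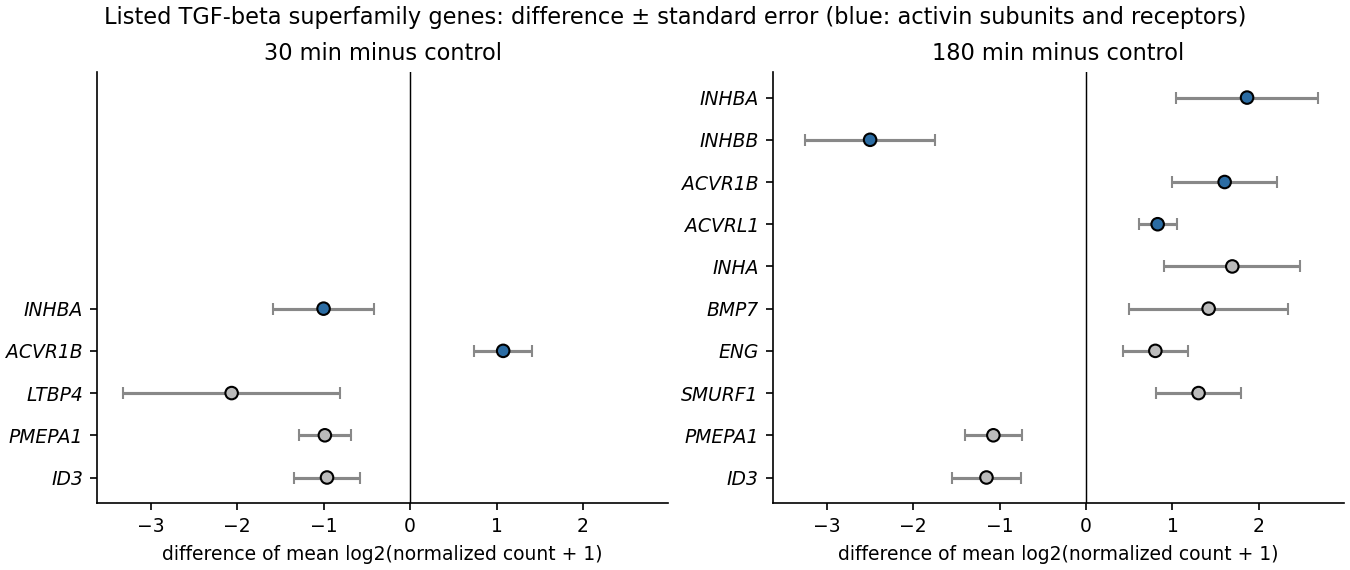
Difference of group means of log2(normalized count + 1), transported minus control, with bars of ± 1 standard error, for the members (blue) and the other pathway genes in the table (grey), after 30 min on the left and after 180 min on the right. *INHBA* lies at 1.86 and *INHBB* at -2.50 after 180 min, and *INHBA* lies at -1.001 after 30 min.

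Among the ligands, *INHA*, the alpha subunit of the inhibins, was close to the limit of counting. It had 0 reads in 6 of the 7 control goats and 5 in control goat 7, and after 180 min its normalized count had a lowest value of 0, a median of 1.20 and a highest of 42.7. The highest goat was goat 10, with 70.9% of the group's total, and *INHA* passed as higher, with a log2 difference of 1.69. Without goat 10 the difference was 1.11 and the call was lost, and it held in 9 of 21 alternatives. *BMP7*, a ligand of the BMP branch, followed goat 10 as well. It reached 69.4 there, 86.1% of the group's total, had a median of 0 in both groups and did not pass, with a difference of 1.42, or 0.67 without goat 10.

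Of the co-receptors, *ENG*, the partner of *ACVRL1* on endothelium, had a lowest normalized count of 355, a median of 534 and a highest of 1927 (goat 10) after 180 min, against 255, 326 and 712 in control goats. Its log2 difference was 0.80 (SE 0.37), or 0.53 without goat 10, and did not pass here but did in 8 of 22 alternatives. Of the binding proteins, *LTBP4*, which anchors latent TGF-beta in the matrix, was analysed at 30 min only. There it had a lowest value of 0, a median of 18.2 and a highest of 24.1 against 9.19, 21.6 and 161 in control goats, and its difference of -2.06 (SE 1.25) did not pass. The value of 0 was goat 24, the other 3 transported goats had 16.5 to 24.1, and the difference was -0.97 without goat 24.

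Downstream of the receptors, *SMURF1*, a ubiquitin ligase that targets SMADs and receptors for degradation, was higher after 180 min. Its lowest, median and highest values were 143, 476 and 1160 (goat 10) against 78.6, 183 and 250, with a difference of 1.30 (SE 0.50), or 1.03 without goat 10, and the call was lost in edgeR with TMM factors. *PMEPA1*, a membrane protein that is induced by TGF-beta and restrains SMAD signalling, was lower at both times. It had values of 15.2, 57.4 and 78.3 after 180 min against 71.9, 112 and 130, a difference of -1.07 (SE 0.33), and after 30 min values from 25.7 to 56.1 against 60.6 to 123, a difference of -0.99 with no overlap of the groups. A separation in that direction was seen in 1.63% of the genes listed at 30 min. The call at 30 min was lost when each goat was centred on the median of the listed genes, where the difference was -0.30.

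*ID3*, a target gene of BMP-type receptors, was lower after 180 min. Its values were 202, 330 and 765 against 427, 675 and 1831 in control goats, a difference of -1.15 (SE 0.40). After 30 min its difference was -0.96 (SE 0.38), which did not pass here and passed in 6 of 19 alternatives, among them both edgeR fits and DESeq2. All of these genes were in the tables because they differed from control, so their directions are not evidence on the pathway as a whole.

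Markers of blood cell types in the 180 min table differed between the groups, as the choice of genes for that table requires, so the calls below stand beside the 36.8% of listed genes that were higher and the 25.6% that were lower, a balance that turned under the 3 scalings given above. The summed normalized count of the 6 neutrophil markers in the table, of 19 on the list, ran from 60994 to 186120 (goat 10) after 180 min and from 18885 to 77964 in control goats, and all 6 passed as higher, 5 of them without goat 10. The 3 monocyte markers of 12 summed to between 9216 and 31348 (goat 15) against 3052 to 10453, all 3 higher. The 6 T cell markers of 14 summed to between 3738 (goat 10) and 8813 against 7220 to 15517, 5 of them lower, and the other, *CD3G*, was lower in 3 of 22 alternatives. The B cell marker *MS4A1*, 1 of 12, had 1635 to 4769 against 3759 to 5196 and was lower, and the NK cell marker *NKG7*, 1 of 11, had 1992 to 3305 against 1053 to 2252 and was higher. Of these calls *MS4A1* held in 11 of 22 alternatives, the monocyte marker *CD14* in 17, the neutrophil markers *AQP9* and *S100A8* in 18 each, the T cell marker *CD3D* in 20, *CSF3R* and *CSF1R* in 21 each, and the others in all 22. Reads of neutrophil, monocyte, T cell, B cell and NK cell markers were thus present, and the other markers of these lists were not analysed here.

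Goat 10 also stood apart in markers of platelets and vessel wall. The platelet marker analysed, *GP1BB*, 1 of 10, had 20030 normalized counts in goat 10. The next goat of the group had 3032 and control goats had 157 to 3269. The median of *GP1BB* was 1110 after 180 min and 1302 in control goats, and it did not pass here or in any of 22 alternatives. The 3 endothelial markers of 13, *CDH5*, *VWF* and *EMCN*, summed to 4223 in goat 10, where the next had 1211 and control goats had 157 to 815. Of these *CDH5* was higher, from a control median of 1.03 normalized counts, and its call was lost in edgeR with TMM factors and in DESeq2. *VWF* is also made by megakaryocytes, and *EMCN* was at 0 in 6 of 7 control goats and in 3 of 7 goats of the 180 min group. *VWF* and *EMCN* did not pass here, and passed as higher in 5 of 22 and 6 of 21 alternatives. The 3 fibroblast markers of 11 summed to 0 to 11.9 against 0 to 326, with 0 passing. In the alternatives *DCN* passed as lower in 7 of 21, among them both edgeR fits and DESeq2, *COL1A2* in 3 of 22 and *COL1A1* in 2 of 22. No eosinophil, basophil or red cell marker of the lists was analysed here.

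At 30 min fewer markers were analysed. The 5 B cell markers of 12 summed to 8570 to 12061 against 8975 to 28768, and the NK cell marker *NCR3*, 1 of 11, had 161 to 196 against 185 to 684, with 0 passing in either list, where 46.0% of the listed genes passed and 24.4% were lower. The B cell marker *CD79B* passed as lower in 5 of 19 alternatives, among them both edgeR fits and DESeq2, and *VPREB3*, another B cell marker, and *NCR3* passed in 2 each.

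Within the groups, *INHBA* ran with neutrophil markers and *ACVR1B* with monocyte markers. Of 30 relations computed over the 14 goats (6 between members and 24 with marker sums or library size), 13 had an adjusted permutation p under 0.05 by Pearson's r and 5 by both r and rho. No relation was computed with the B cell, NK cell or fibroblast markers described above. Members and markers were listed for their values in these same goats. Taking out group means need not remove that choice, so the p-values of these relations are descriptive. The neutrophil sum was mostly *CSF3R* and *S100A12*, with medians of 50139 and 29451 normalized counts after 180 min beside 99123 for the sum. *ALPL*, *LTF* and *AQP9* had medians of 1601, 947 and 287 there and little weight. For *INHBA* and the neutrophil sum r was 0.81 (permutation p = 0.00019, adjusted p = 0.0057) and rho was 0.79 (permutation p = 0.00143, adjusted p = 0.0229), with r = 0.71 without the 2 farthest goats and 0.78 without goat 10. For *INHBA* and the platelet marker r was 0.80 (permutation p = 0.00179, adjusted p = 0.0148) and rho was 0.74 (permutation p = 0.00298, adjusted p = 0.0283), with r = 0.64 and 0.66 on leaving out the same goats. Without goat 10, the highest goat in both genes, the permutation p was 0.0254, unadjusted. The endothelial sum was mostly *VWF*, which megakaryocytes also make: goat 10 had 3996 normalized counts of it in a sum of 4223, and in the highest control goat *VWF* was the whole sum of 815. For *INHBA* and this sum r was 0.81 (permutation p = 0.00258, adjusted p = 0.0155) and rho was 0.76 (permutation p = 0.00378, adjusted p = 0.0283), with r = 0.46 and 0.65, so its size rests on those goats.

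*ACVR1B* ran with the monocyte markers. Its r with the monocyte sum was 0.78 (permutation p = 0.00198, adjusted p = 0.0148) and rho was 0.74 (permutation p = 0.00504, adjusted p = 0.0302), with r = 0.75 without the 2 farthest goats and 0.82 without goat 10. With the platelet marker r was -0.75 (permutation p = 0.00175, adjusted p = 0.0148) and rho was -0.77 (permutation p = 0.00153, adjusted p = 0.0229), with r = -0.64 and -0.66. *INHBA* had an r of -0.12 with the monocyte sum (permutation p = 0.685, adjusted p = 0.709; rho = -0.24, permutation p = 0.430, adjusted p = 0.525; r = -0.31 without the 2 farthest goats), and the difference between the correlations was not tested. *ACVRL1* had its strongest relation with the T cell sum, with an r of -0.72 (permutation p = 0.00481, adjusted p = 0.0206), a rho of -0.64 (permutation p = 0.0191, adjusted p = 0.0678) and r = -0.68 without the 2 farthest goats. Its r with the endothelial sum, 0.58, did not pass adjustment (permutation p = 0.0346, adjusted p = 0.0649; rho = 0.63, permutation p = 0.0240, adjusted p = 0.0719), with r = 0.52 without the 2 farthest goats and 0.48 without goat 10. With the endothelial sum, mostly *VWF*, *ACVR1B* had an r of -0.64 (permutation p = 0.0191, adjusted p = 0.0440; rho = -0.71, permutation p = 0.0100, adjusted p = 0.0502), with r = -0.75 without the 2 farthest goats and -0.48 without goat 10. *INHBA* had an r of -0.71 with the T cell sum (permutation p = 0.0111, adjusted p = 0.0366; rho = -0.39, permutation p = 0.193, adjusted p = 0.277), which was -0.14 without the 2 farthest goats and so rests on them.

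*INHBB* ran against the marker sums with which *INHBA* ran, by Pearson's r but not by rho after adjustment. Its r with the neutrophil sum was -0.57 (permutation p = 0.0151, adjusted p = 0.0396; rho = -0.52, permutation p = 0.0589, adjusted p = 0.111), with r = -0.41 without the 2 farthest goats and -0.46 without goat 10. Its r with the platelet marker was -0.71 (permutation p = 0.0114, adjusted p = 0.0366; rho = -0.60, permutation p = 0.0267, adjusted p = 0.0728), with r = -0.39 and -0.45 on leaving out the same goats. Its r with the endothelial sum was -0.74 (permutation p = 0.0158, adjusted p = 0.0396; rho = -0.54, permutation p = 0.0566, adjusted p = 0.111), with r = -0.35 and -0.39. The size of the platelet and endothelial relations rests on goat 10, which had 0 reads of *INHBB*. The part that these cell types had in the levels of the members was not tested.

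**Figure D4:**
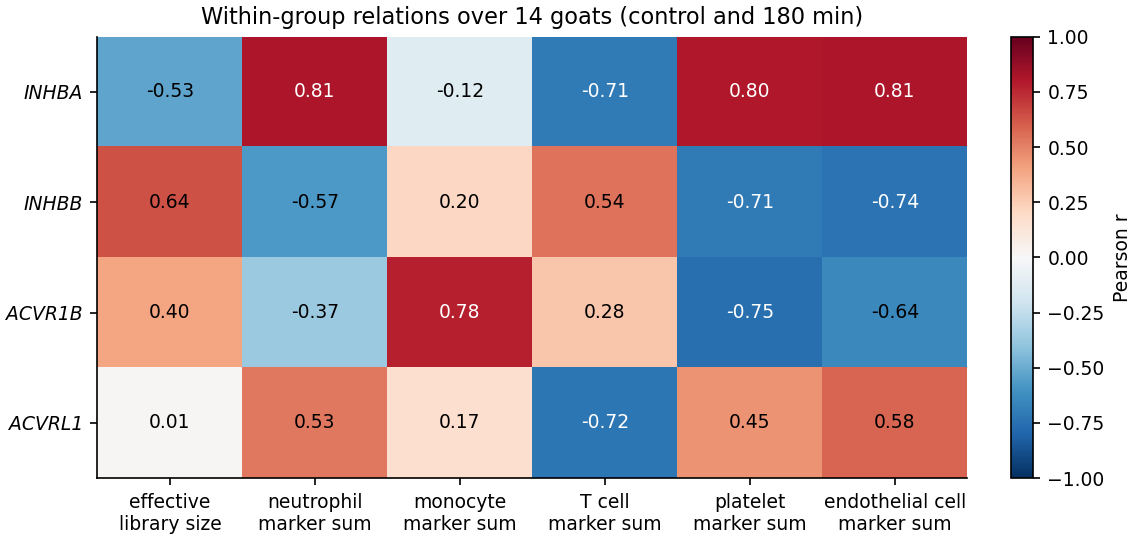
Pearson's r (colour and number) between each member and the effective library size or the summed markers of 5 cell types (for platelets *GP1BB* alone), over 14 control and 180 min goats with group means taken out. *INHBA* had r = 0.81 with neutrophil markers and *ACVR1B* had r = 0.78 with monocyte markers. For *ACVRL1* and library size the groups differed in sign (r = 0.63 in control goats and -0.71 in 180 min goats).

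The genes whose levels followed each member most closely over the goats, with group means taken out, were sought among named genes averaging 10 or more normalized counts. At 180 min (14 goats, 770 genes) they were *CAPN1* (r = 0.95, rho = 0.91), *TCN2* (0.95, 0.94) and *PDLIM7* (0.94, 0.89) for *INHBA*. For *ACVR1B* they were *NLRP3*, the inflammasome sensor (r = 0.96, rho = 0.96), *UBE2H* (0.95, 0.94) and *SYK*, a kinase of immune receptors (0.92, 0.95). For *ACVRL1* they were *CLDN15* (r = 0.89, rho = 0.96), *TSKS* (0.86, 0.86) and *FAM20A* (0.84, 0.83), and for *INHBB* they were *SLC20A1* (r = 0.88, rho = 0.81), *DBF4* (0.88, 0.57) and *ANKRD22* (0.88, 0.56). At 30 min (11 goats, 239 genes) the closest were *RECQL4* (r = 0.89, rho = 0.66), *MEIKIN* (0.87, 0.74) and *HSF4* (0.86, 0.62) for *INHBA*, and *LITAF* (r = 0.93, rho = 0.94), *RIDA* (0.93, 0.81) and *TM6SF1* (0.91, 0.79) for *ACVR1B*. The genes were picked for their high r, which is therefore a description.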

How the data were processed

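Blood RNA of 18 goats was sequenced, 1 library per goat, with groups taken from the sample labels. The authors ran fastp on the reads and HISAT2 for mapping; the genome build and counting tool are not given in the sources used here. The deposited counts are reads per gene. Normalized counts, the main signal, were obtained by the authors by dividing counts by a size factor per goat, set separately in the 2 tables. The deposited FPKM divide counts by gene length and effective library size. The deposited log2 fold changes and p-values are the authors' own comparisons and were not used, except that the p-values showed that the tables hold only genes with an unadjusted p under 0.05.

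All listed genes were fitted with limma 3.58.1 (R 4.3.3) on log2(normalized count + 1), two-sided, checked on simulated data. edgeR 4.0.16 and DESeq2 1.42.0 were alternatives, because their scaling needs the unchanged genes. Relations over goats were tested with 100000 permutations within groups and, within 1 group, with exact permutation tests, and p-values were adjusted by Benjamini-Hochberg. The same goats had chosen the genes, so the p-values of relations are descriptive. The planned tests of *INHBA* and *ACVR1B* between transport times were run but are not given, because the values tested had also chosen the genes. FPKM were compared as log2(FPKM + 0.1). Alternatives were pseudocounts of 0.1 and 10, a filter at a mean normalized count of 10, effective library sizes, centring on the listed genes, edgeR, DESeq2 and leaving out each goat. Genes named were the 4 members, pathway genes in a table, the 3 genes most like each member, and markers. Members and lists were chosen with earlier results of these data known. The precision of low genes is limited by reads per goat. Some marker genes of the lists are not reported here and were left out of the sums.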

Additional observations from a re-analysis of the deposited data

Results flagged for a closer look

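In 4 of the 12 groups of goats tested, 1 goat stood far from the others by Dixon's ratio, the gap to the nearest goat divided by the group's range (compared with Dixon's 95% critical value), which chance does in about 1 in 20 groups if values are normally distributed. Normalized counts are skewed: on the scale of log2(normalized count + 1), added after seeing the data, 1 of the 12 groups passed, *INHBB* after 180 min (goat 10, ratio 0.71), and none of the following did. For *INHBA* after 180 min the ratio of goat 10 was 0.830, at 1695 normalized counts against 334 in the next goat. Among control goats, *INHBA* in goat 3 had a ratio of 0.670 in the 180 min table (233) and 0.661 in the 30 min table (222), which hold the same reads. For *INHBB* control goat 4 had a ratio of 0.579, at 211. In *INHBA* all 7 goats of the 180 min group were above the control median and all 4 of the 30 min group were below it. The log2 difference between the times was 2.87, and its test is not given because these values had chosen the gene.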

How the results depend on the processing

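Over 120 alternatives for the 6 differences of members from control, all 120 kept the direction and 2 moved by more than the spread between goats: *ACVRL1* at 180 min was 0.83, 0.40 in DESeq2 and 0.35 in edgeR with TMM factors (the latter added after seeing the data), where the median of all listed genes moved by -0.35 and -0.41. The ranges were 1.31 to 2.42 for *INHBA*, -3.01 to -1.76 for *INHBB*, 1.27 to 1.90 for *ACVR1B* and 0.35 to 0.91 for *ACVRL1* at 180 min, and -1.54 to -0.31 for *INHBA* and 0.82 to 1.77 for *ACVR1B* at 30 min. Leaving out each goat gave 105 to 221 listed genes called at 30 min, against 198. For members called at 30 min it gave 0 to 1, and edgeR with TMM factors gave 0, against 1. For pathway genes called at 30 min it gave 1 to 3, and centring on the listed genes gave 1, against 2; the cause was not tested. The relation of *INHBB* with *ACVRL1* reversed without goat 10 (range over goats left out -0.37 to 0.20). No paired analysis was possible because no goat number occurs in more than 1 group. Among the 4 members, reads were fewest for *INHBA* and *INHBB*, down to 10 and 0 per goat.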
